A study of Mus musculus with 6 samples.

Results

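The genes described here encode the machinery by which a loaded secretory granule is tethered, primed and fused with the plasma membrane. They were taken from a list of 35 gene symbols, matched to probe sets that carry a single symbol in the array annotation. Where a gene had several, its brightest probe set (by mean over the arrays) stood for it. All 35 were measured, by 88 probe sets, among 18194 genes on 34958 such probe sets. The tissue was the whole pancreas, mostly exocrine, of untreated NMRI mice on postnatal day 15, and each sample was read on 1 Affymetrix 3' expression array. The Prox1-OE group (3 arrays) had the genotype Jojo-Prox1 with Ngn3-cre and the control group (3 arrays) had Ngn3-cre alone, so both groups carry the Cre driver. Ngn3-cre acts in progenitors of all endocrine cells, so the transgene is not limited to beta cells by the driver. The submitters state the aim for beta cells, in which Prox1, a homeobox factor of pancreatic progenitors, was to be overexpressed.

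Secretory cells fuse granules with SNARE proteins, in which a vesicle SNARE (a VAMP) zips together with a syntaxin and a SNAP protein of the plasma membrane. Rab3 and Rab27 proteins and their effectors bring granules to the membrane, Munc13, CAPS and Munc18 proteins prime them, synaptotagmins sense calcium, complexins hold the assembled complex ready, and NSF with its adaptor takes spent complexes apart. Islet cells and neurons use forms such as SNAP25, syntaxin 1A, VAMP2 and RAB3A. Zymogen granules of acinar cells use forms such as SNAP23, VAMP8, RAB3D, syntaxins 2, 3 and 4 and Munc18-2. The sets are not exclusive to these cells. The list was divided along these lines into 18 neuroendocrine forms, 11 acinar or ubiquitous forms and 6 genes made in several cell types. The class names do not say which cells the RNA came from, which was not tested. In this mostly exocrine tissue the neuroendocrine forms Vamp2 and Cplx2 read at percentiles 79.2 and 81.3 of all probe sets.

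Many neuronal and endocrine genes carry an RE1 element, a sequence through which the repressor REST keeps them silent in other cells. RefSeq promoter windows (GRCm38.p6, from 250 bases before to 50 after the start) were held for 26 of the 35 genes, in 30 windows. The left part of RE1 (TTCAGCACC, searched on both strands) occurred in the windows of Ptprn2 and Unc13a, both neuroendocrine forms, in 0 of the 9 acinar or ubiquitous genes with a window, and in 0.371% of all 32851 windows. The right part (GGACAG, both strands, sharing no bases with the left part) occurred for 9 of the 26 genes, Snap23 among them, and in 22.2% of all windows. Both parts together occurred in 0.0913% of all windows. The 30 bases from position 2 to 31 after the start are shown for those 2 genes and for Snap23, a ubiquitous form. A window was held for 11 neuroendocrine forms, and Snap25, the counterpart of Snap23, was not among them. Snap23 is therefore shown beside genes that are not its counterparts, and Snap25 and Snap23 could not be compared. Capitals mark complete matches to either part, read here on the opposite strand. The Snap23 match to the right part, at positions 30 to 35, runs past the bases shown and has no capitals. A further match to the right part in Unc13a, at positions -160 to -155, also lies outside the bases shown.
Ptprn2, chr12:116485721-116485750, + strand: gtggcgCTGTCCGGTGCTGAAgctcggccg
Unc13a, chr8:71671727-71671756, - strand: tcaggcgCTGTCCgcgcccccGGTGCTGAA
Snap23, chr2:120567672-120567701, + strand: ggcgcatgcgcgcgagggagcgcgcaccct
In Ptprn2 the parts are adjacent, at positions 8 to 13 and 14 to 22. In Unc13a they lie further apart, at positions 9 to 14 and 23 to 31. The search counted both parts anywhere in a window and set no spacing between them. Neither gene is therefore shown to have a whole RE1. The letters were chosen after values were seen and say nothing of binding. On the arrays Ptprn2 differed between Prox1-OE and control by -0.54 ± 0.15 (log2 difference and SE) and Unc13a by 0.03 ± 0.09.

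The tissue labels were borne out by the marker genes. The acinar enzyme gene Cpa1 read between 14.57 and 14.69 on the log2 scale, near the highest value of any array (14.92), and the hormone genes Ins2 (12.62 to 13.44) and Gcg (11.91 to 12.86) were also high on every array. Prox1 has 3 probe sets, of which the brightest read 5.14 ± 0.41 (SD, n = 3) in control against 5.20 ± 0.19 (SD, n = 3) with the transgene. The 3 differed by 0.06 ± 0.19, 0.02 ± 0.09 and -0.03 ± 0.18 (limma over all probe sets, adjusted p 0.972 to 0.988), so higher Prox1 RNA was not seen. A 3' probe set may lie outside the transgene's transcript, and where these lie was not checked. In a principal component analysis Prox1-OE replicate 1 lay apart on the first component (score -28.7, others -4.37 to 16.7) and control replicate 3 on the second (21.3, others -11.6 to 6.42). Prox1-OE replicate 1 also had the highest macrophage marker level (mean of 10 genes 1.08 above control, against 0.41 and 0.44 on the other Prox1-OE arrays). The labels do not tell if replicates were separate animals, so p-values measure the spread between these samples only, which may be technical.

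None of the 35 genes passed the threshold, a limma adjusted p under 0.05 over all genes, which 5 of 18194 genes (0.0275%) did. As shares of all 18194 genes, 0.00550% passed as lower and 0.0220% as higher in Prox1-OE. The lowest limma adjusted p among the 35 genes was 0.690. Of the 35 genes 27 had a negative difference, against 53.8% of all genes, and the median difference was -0.08 on the log2 scale, against -0.01 over all genes. The genes share the same 6 arrays and are not independent, and they were chosen with earlier results known. The count is therefore not a test. On control replicate 1, 14 of the 35 genes read highest (3035 of all 18194 genes). At an unadjusted limma p under 0.05, 5 of the 35 were lower in Prox1-OE and 0 higher, where 3.70% and 2.94% of all genes were. Those 5 were Rab27a, Ptprn2, Snap25, Syt13 and Syt4. The groups did not overlap for 6 genes that were lower (7.02% of all genes) and 1 that was higher (5.05%). Of the 5, Ptprn2 and Rab27a stayed under an unadjusted p of 0.05 in each of the 6 fits that left out 1 array. Without Prox1-OE replicate 2 or without Prox1-OE replicate 3 they were the only 2, and Snap25, Syt13 and Syt4 did not stay under it. In those fits 2.87% and 3.9% of all genes were lower. Without Prox1-OE replicate 1 and control replicate 3, the arrays that stand apart, 7 of the 35 were lower and 1 higher, where 3.11% of all genes were lower. The share of all genes that was higher was not counted in that fit. In whole tissue, fewer cells of a type and less RNA per cell cannot be told apart.

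Negative differences were found in each class. Of the 18 neuroendocrine forms 15 had a negative difference, with a median of -0.15 and a range of -0.74 to 0.04. Of the 11 acinar or ubiquitous forms 7 did, with a median of -0.02 and a range of -0.18 to 0.22. Of the 6 genes made in several cell types 5 did, with a median of -0.09. At an unadjusted limma p under 0.05 there were 4 neuroendocrine forms, 0 acinar or ubiquitous forms and 1 gene made in several cell types (Rab27a), all lower. The difference between the classes was not tested. It depends on the probe sets chosen: with preference for plain ones (no _s, _a or _x in the name) the medians were -0.08 for the neuroendocrine and -0.07 for the acinar or ubiquitous forms. Without Prox1-OE replicate 1 they were -0.06 and -0.03, and without control replicate 1 -0.09 and -0.04. The classes also differ in level: 6 of the 18 neuroendocrine forms and 0 of the 11 acinar or ubiquitous forms lay below the median level of all probe sets. Of the 12 neuroendocrine forms at or above it, 10 were negative (49.8% of all genes at such levels), with a median of -0.10, 2 were lower at an unadjusted limma p under 0.05 (3.36%), and 2 were lower without overlap (6.25%).

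**Figure D1:**
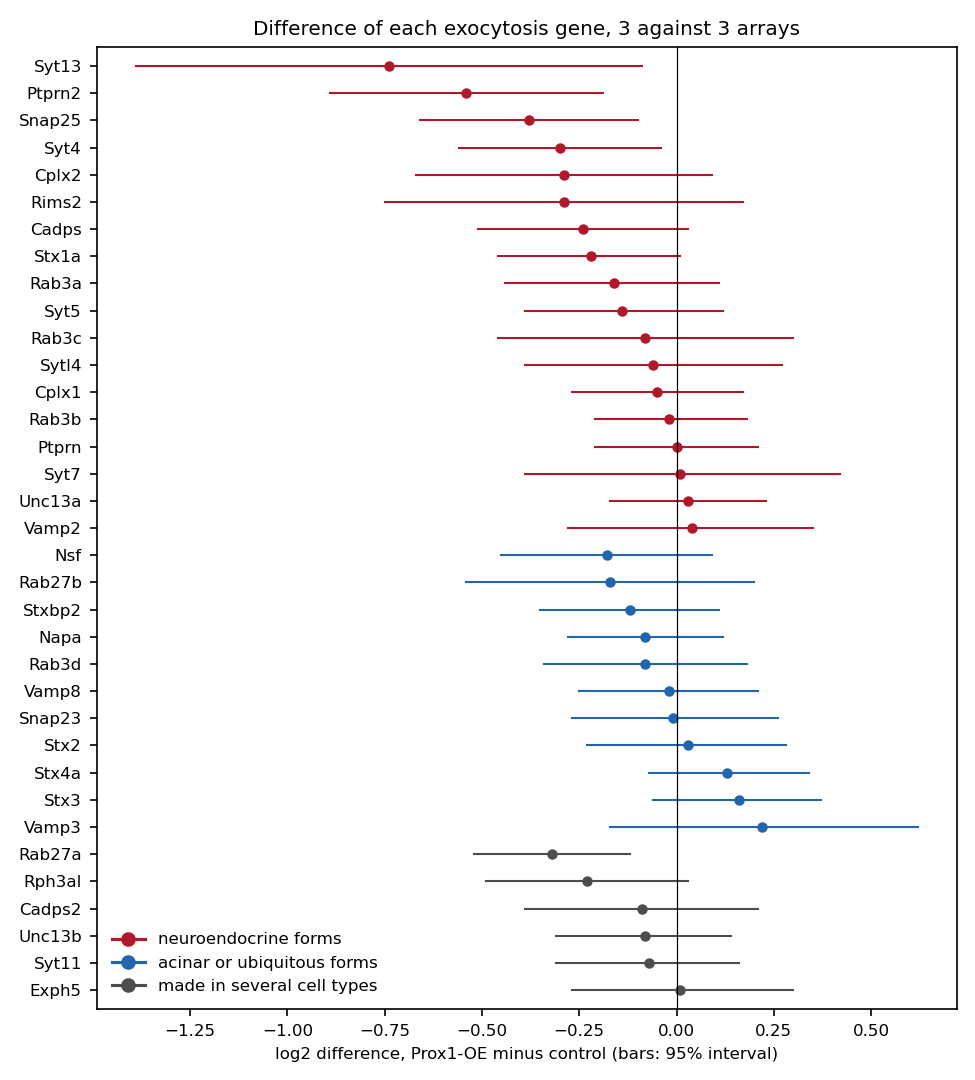
Log2 difference between 3 Prox1-OE and 3 control arrays (x axis) for each of the 35 genes (y axis), coloured by class; points are limma estimates and bars their 95% intervals, not adjusted for the number of genes. The 5 intervals that do not reach 0 are those of Syt13, Ptprn2, Snap25, Syt4 and Rab27a, and the acinar or ubiquitous forms lie between -0.18 and 0.22.

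Among the 9 SNARE genes Snap25 was the 1 with an unadjusted limma p under 0.05. Snap25, the plasma membrane SNARE of neurons and islets, read 4.05, 4.05 and 4.06 on control replicates 1, 2 and 3 and 3.94, 3.51 and 3.57 on the Prox1-OE arrays. The groups did not overlap, but Prox1-OE replicate 1 lay close to the controls, and the probe set lay at percentile 38.4 of all probe sets, below the median level of 4.39. The difference was -0.38 ± 0.12 (SE, limma adjusted p = 0.690, unadjusted p = 0.0141), and -0.52 without Prox1-OE replicate 1. The other Snap25 probe set, at percentile 2.0, differed by -0.17 ± 0.11.

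Stx1a, the syntaxin that pairs with SNAP25, read 6.36, 6.61 and 6.65 in control and 6.37, 6.29 and 6.29 in Prox1-OE. Control replicate 1 lay inside the Prox1-OE range, and the difference was -0.22 ± 0.10 (limma adjusted p = 0.753). Its brightest probe set is of a kind (_x_at) that can bind other transcripts, and the plain one, at percentile 21.2, differed by -0.09 ± 0.10. Vamp2, the vesicle SNARE of insulin granules and synaptic vesicles, read 7.02, 6.58 and 6.57 in control and 6.72, 6.70 and 6.87 in Prox1-OE, so the Prox1-OE arrays lay between the controls. It differed by 0.04 ± 0.14 (limma adjusted p = 0.974), while its second, dim probe set (percentile 10.8) differed by -0.21 ± 0.09.

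The acinar and ubiquitous SNAREs lay close to control. Snap23, which replaces SNAP25 in most cells, read 7.03, 7.25 and 6.84 in control and 7.09, 7.03 and 6.98 in Prox1-OE, a difference of -0.01 ± 0.12 with a 95% interval of -0.27 to 0.26. Vamp8, the main vesicle SNARE of zymogen granules, read 9.35, 9.46 and 9.42 in control and 9.46, 9.23 and 9.48 in Prox1-OE, a difference of -0.02 ± 0.10 (-0.25 to 0.21). In both genes the groups overlapped. Stx3, a syntaxin of zymogen granules and of apical membranes, was the 1 gene higher without overlap, at 8.31, 8.26 and 8.10 in control and 8.44, 8.33 and 8.37 in Prox1-OE. Its difference of 0.16 ± 0.09 did not pass (limma adjusted p = 0.784), and its other 3 probe sets differed by 0.24 ± 0.10, 0.13 ± 0.10 and 0.08 ± 0.12. Stx4a (0.13 ± 0.09), Stx2 (0.03 ± 0.11) and Vamp3 (0.22 ± 0.17), of plasma membrane and recycling vesicles, also had small positive differences, with Vamp3's 5 probe sets running from -0.07 to 0.22.

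Neuroendocrine and ubiquitous forms of a kind were also set against each other within arrays, in 4 pairs chosen with their values known, each relative to its control mean. Stx1a minus Stx4a was -0.14, 0.02 and 0.11 on the control arrays and -0.35, -0.28 and -0.44 on the Prox1-OE arrays, with no overlap (mean -0.36; exact two-sided permutation p = 0.1, the smallest that 3 against 3 allows, adjusted p = 0.4 over the 4 pairs). Snap25 minus Snap23 was 0.01, -0.21 and 0.20 in control and -0.16, -0.54 and -0.43 in Prox1-OE, with overlap (mean -0.38, exact permutation p = 0.2, adjusted p = 0.4). Vamp2 minus Vamp8 (mean 0.06, exact permutation p = 0.8) and Rab3a minus Rab3d (mean -0.08, exact permutation p = 0.7) overlapped between the groups. With plain probe sets Stx1a minus Stx4a was -0.22 and Rab3a minus Rab3d -0.21, so the size of both depends on the _x_at sets. With 3 arrays a group no pair could pass.

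Of the 5 synaptotagmins, 4 had a negative difference. Syt13, an atypical synaptotagmin of endocrine cells, had the largest negative difference of the 35 genes, -0.74 ± 0.28 (limma adjusted p = 0.721, unadjusted p = 0.0301). It read 6.26, 5.61 and 4.92 in control but 4.89, 4.84 and 4.86 in Prox1-OE. The Prox1-OE arrays were nearly equal, the controls spread widely, and control replicate 3 lay just above the Prox1-OE arrays. The difference was -0.41 without control replicate 1 and -1.08 without control replicate 3. The islet hormones ordered the controls in the same way: Ins2 read 13.44, 13.02 and 12.62 and Sst 9.15, 8.54 and 7.93 on control replicates 1, 2 and 3, whereas on the Prox1-OE arrays Ins2 (13.04, 12.72 and 12.77) and Sst (8.82, 8.51 and 8.87) lay within the control range. In a fit with the mean of 4 hormone genes as a covariate the Syt13 difference was -0.73 ± 0.10 (limma adjusted p = 0.279). A fall from control replicate 1 to 2 to 3 was seen in 9 of the 35 genes and in 3310 of all 18194. The second Syt13 probe set, at percentile 37.9, did not have that order. It read 3.90, 3.76 and 4.23 on control replicates 1, 2 and 3 and differed by -0.23 ± 0.13.

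Syt4, a synaptotagmin of neurons and beta cells that does not bind calcium in the usual way, read 3.54, 3.82 and 3.43 in control and 3.26, 3.33 and 3.30 in Prox1-OE. The groups did not overlap, but the probe set lay at percentile 25.2, below the median level, where array values are compressed. The difference was -0.30 ± 0.11 (limma adjusted p = 0.721, unadjusted p = 0.0302), and the second probe set, at percentile 11.2, differed by -0.25 ± 0.10. Syt5 (-0.14 ± 0.11) and Syt7 (0.01 ± 0.18), calcium sensors of insulin granules, and Syt11 (-0.07 ± 0.10) did not differ measurably. For Syt7 the 4 probe sets ran from -0.23 to 0.07.

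**Figure D2:**
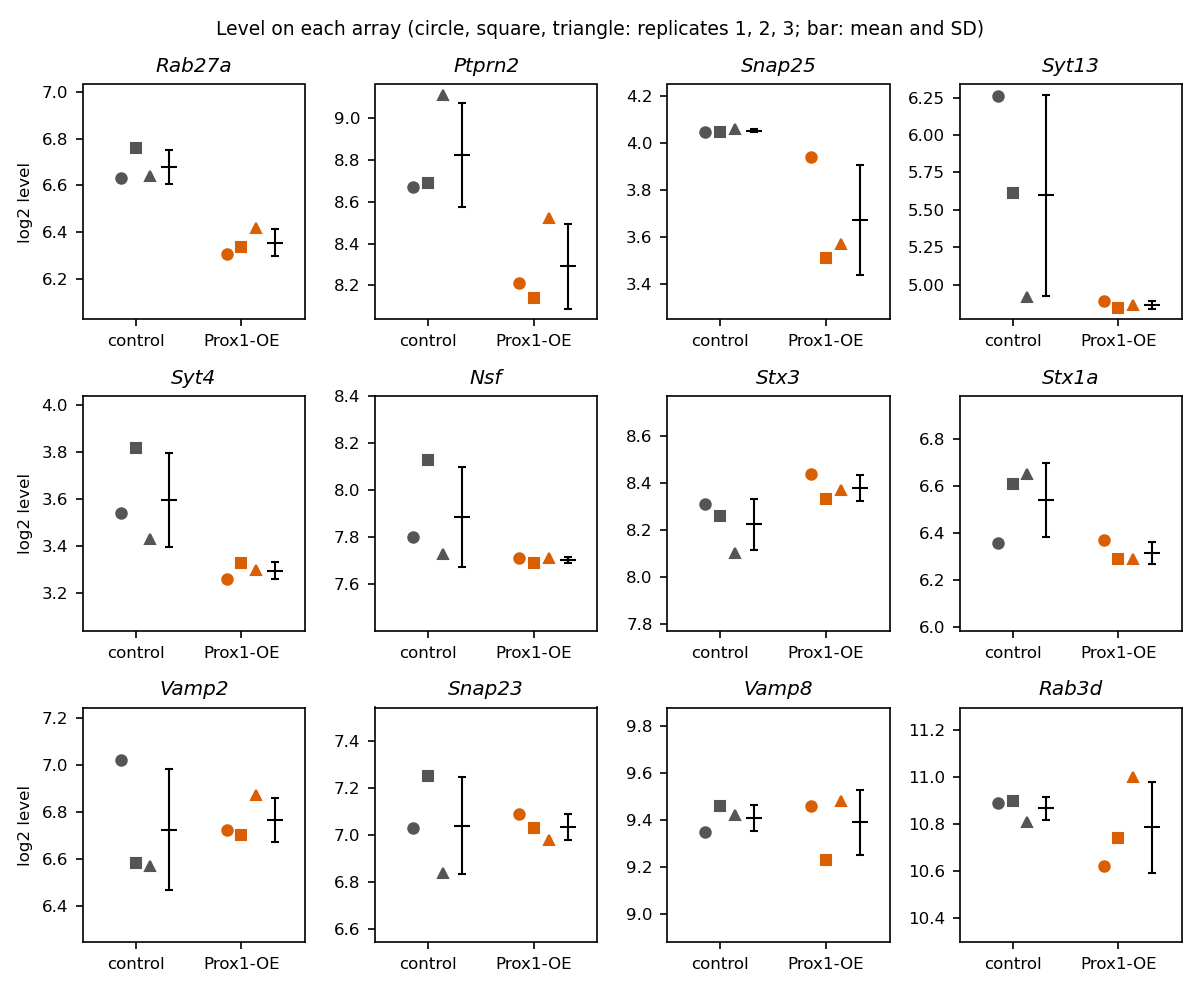
Log2 level (y axis) of 12 genes on each array, control in grey and Prox1-OE in orange (x axis), with circles, squares and triangles for replicates 1, 2 and 3, and the mean with SD beside them; panels have separate scales and levels are not compared between genes. Rab27a, Ptprn2, Snap25, Syt13, Syt4 and Nsf lie lower in all Prox1-OE arrays than in any control, Stx3 lies higher, and the groups overlap for Stx1a, Vamp2, Snap23, Vamp8 and Rab3d.

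All 6 Rab genes had a negative difference, and Rab27a had the smallest p of the 35 genes. Rab27a, which recruits granules to the cell periphery through its effectors, read 6.63, 6.76 and 6.64 in control and 6.31, 6.34 and 6.42 in Prox1-OE. The replicates of each group lay close together (SD 0.07 and 0.06) and did not overlap. The difference was -0.32 ± 0.09 (95% interval -0.52 to -0.12, limma adjusted p = 0.690, unadjusted p = 0.00562), and -0.28 to -0.35 without any 1 array. Its other 3 probe sets, dim at percentiles 9.5 to 31.4, differed by -0.08, 0.10 and 0.06, so the mean of all 4 differed by -0.06 ± 0.08. Rab27b, the form of zymogen granules and platelets, differed by -0.17 ± 0.16 in its brightest probe set, and its other 3 by -0.33 ± 0.12, -0.19 ± 0.11 and -0.18 ± 0.12, so all 4 were negative.

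Rab3a, the Rab of insulin granules and synaptic vesicles, differed by -0.16 ± 0.12 (limma adjusted p = 0.819) in its brightest probe set, an _x_at set. Its plain probe set, at percentile 65.7, differed by -0.32 ± 0.09 (unadjusted p = 0.00775, limma adjusted p = 0.760 over all probe sets). Rab3d, the Rab of zymogen granules, read 10.89, 10.90 and 10.81 in control and 10.62, 10.74 and 11.00 in Prox1-OE. The Prox1-OE arrays lay on either side of the controls, and the difference was -0.08 ± 0.11 (limma adjusted p = 0.913). All 4 Rab3d probe sets were slightly negative (-0.08 to -0.15). Rab3b (-0.02 ± 0.09) and Rab3c (-0.08 ± 0.17) lay near or below the median level.

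None of the 4 Rab effector genes had an unadjusted limma p under 0.05. Rph3al (Noc2), which binds Rab3 and Rab27 on endocrine and exocrine granules, differed by -0.23 ± 0.11 (limma adjusted p = 0.766), its other probe set by 0.04 ± 0.09, and their mean by -0.09. Rims2, which docks granules through Rab3, differed by -0.29 ± 0.20 in an _s_at probe set below the median level. Its other 4 probe sets, dimmer still, differed by -0.03, -0.06, -0.09 and 0.14, and the value was -0.12 without control replicate 2 and -0.52 without control replicate 3. Sytl4 (granuphilin), a RAB27A effector of insulin granules, differed by -0.06 ± 0.14, and Exph5, another RAB27A effector, by 0.01 ± 0.12. Myrip, which links RAB27A to myosin on insulin granules and was in a list of further exocytosis genes, differed by -0.34 ± 0.11 (limma adjusted p = 0.690), from 7.15, 7.09 and 6.82 in control to 6.67, 6.65 and 6.70 in Prox1-OE, with no overlap.

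The priming factors had small differences. Cadps, which encodes the CAPS1 protein of dense-core granules, differed by -0.24 ± 0.12 (limma adjusted p = 0.763) at percentile 28.2, and Cadps2, its relative, by -0.09 ± 0.13. Unc13b, the Munc13-2 gene, differed by -0.08 ± 0.10 and Unc13a, the Munc13-1 gene, by 0.03 ± 0.09. Stxbp2 (Munc18-2), the syntaxin partner of acinar and blood cells, differed by -0.12 ± 0.10, and its other probe sets by -0.20 ± 0.11 and -0.18 ± 0.13. The complexin genes Cplx2 and Cplx1 differed by -0.29 ± 0.17 and -0.05 ± 0.10, and all 3 probe sets of Cplx2 were negative (-0.12 to -0.29). Control replicate 1 was the highest for Cplx2 (7.49, against 6.90 and 6.91 on the other controls), and without it the difference was -0.09.

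Nsf, the ATPase that takes SNARE complexes apart in every cell, read 7.80, 8.13 and 7.73 in control and 7.71, 7.69 and 7.71 in Prox1-OE. The groups did not overlap, though control replicate 3 lay just above the Prox1-OE arrays, and the difference of -0.18 ± 0.12 did not pass (limma adjusted p = 0.798). It was -0.06 without control replicate 2, the highest array, and the other 3 probe sets differed by -0.18, -0.05 and -0.03. Napa, its adaptor alpha-SNAP, differed by -0.08 ± 0.09.

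The granule membrane proteins of the IA-2 family are made in islets and neurons. Ptprn2 (phogrin) read 8.67, 8.69 and 9.11 in control and 8.21, 8.14 and 8.52 in Prox1-OE. Every Prox1-OE array lay below every control, and replicate 3 was the highest of both groups. The difference was -0.54 ± 0.15 (0.688-fold, 95% interval -0.89 to -0.19, limma adjusted p = 0.690, unadjusted p = 0.00729), and -0.39 to -0.65 without any 1 array. Its second probe set, at percentile 26.7, differed by -0.12 ± 0.10, and the mean of both by -0.33. Ptprn (IA-2) read 6.17, 6.02 and 5.96 in control and 6.11, 6.05 and 5.99 in Prox1-OE, a difference of 0.00 ± 0.09 with an interval of -0.21 to 0.21. The difference between the genes was not tested.

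**Figure D3:**
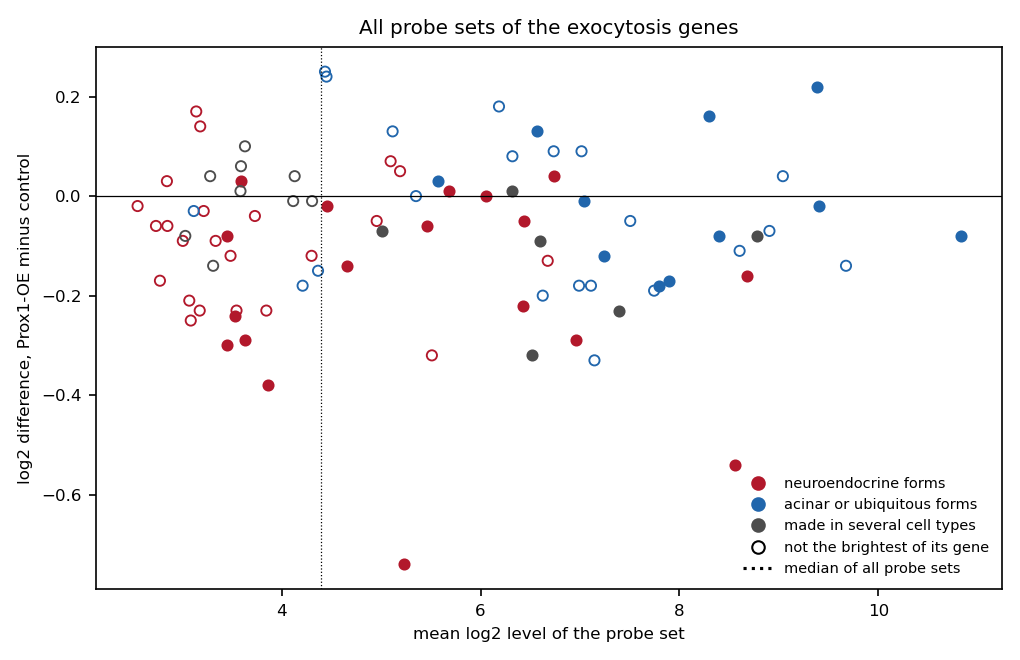
Log2 difference, Prox1-OE minus control (y axis), of all 88 probe sets of the 35 genes against their mean log2 level (x axis), coloured by class; filled points are the brightest probe set of a gene, open points the others, and the dotted line is the median level of all probe sets. Of the 41 probe sets of neuroendocrine forms 33 lie below 0 and 24 lie left of the dotted line, against 20 and 3 of the 32 of acinar or ubiquitous forms.

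Taken over every probe set, 62 of 88 had a negative difference, against 53.8% of all named probe sets. Of the 88, 8 were lower and 1 higher at an unadjusted limma p under 0.05, where 3.39% of all named probe sets were lower, and 0 passed after adjustment. The share of all named probe sets that was higher was not counted. Neuroendocrine forms made up 6 of the 8. Probe sets of 1 gene share its transcript and are not independent.

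The intervals below are each for 1 probe set, the brightest of its gene. For 25 of the 35 genes the 95% interval lay wholly within 0.5 on the log2 scale of no difference. Among the acinar or ubiquitous forms 9 of 11 did, and a larger rise of Vamp3 and a larger decrease of Rab27b were not excluded. Among the neuroendocrine forms 11 of 18 did, and for the other 7 (Snap25, Syt4, Syt13, Cadps, Rims2, Cplx2 and Ptprn2) a decrease of that size lay inside the interval. Other probe sets can differ more, as the plain set of Rab3a did (-0.32 ± 0.09). Rab3c and Unc13a, counted within the bound, lay at percentiles 25.3 and 30.4. Values there are compressed, so their intervals limit the difference less.

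Further exocytosis genes from a list of 85, of which 80 were measured, did not lie to one side. Of the 80, 41 were negative and the median was 0.00. At an unadjusted limma p under 0.05, 5 were lower and 2 higher, where 3.70% and 2.94% of all genes were, and 0 passed the adjusted threshold. Besides Myrip, the lower genes with the smallest p were Rims4, a small RIM protein (-0.30 ± 0.09), Syt14, an atypical synaptotagmin (-0.28 ± 0.09), and Rab26, a Rab of acinar granules (-0.36 ± 0.15). Syt14 and Rims4 lay below the median level, at percentiles 27.5 and 48.6 of all probe sets. The higher genes were Exoc6 (0.29 ± 0.10) and Exoc5 (0.22 ± 0.09), subunits of the exocyst, which tethers vesicles at the plasma membrane. For all 6 the limma adjusted p lay between 0.690 and 0.746.

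Markers of the cells that make these proteins were read on the same arrays. The mean of the 18 neuroendocrine forms over their control means was -0.22, -0.18 and -0.17 on Prox1-OE replicates 1, 2 and 3 and 0.11, -0.01 and -0.10 on the controls, so control replicate 3 lay nearest the Prox1-OE arrays. The means of 9 granule cargo genes were -0.33, -0.29 and -0.37 against 0.22, 0.02 and -0.24. Of these Chga, chromogranin A, fell by 1.51 on the log2 scale (limma adjusted p = 0.0217), and without it the other 8 overlapped between the groups (-0.18, -0.16 and -0.20 against 0.22, 0.03 and -0.25). The 7 beta cell markers had -0.72, -0.80 and -0.95 against 0.21, 0.03 and -0.24. The 4 hormone genes lay at 0.08, -0.11 and 0.02 against 0.43, 0.02 and -0.45, with full overlap. The acinar or ubiquitous forms stayed between -0.03 and 0.03 on all 6 arrays. The 9 acinar markers lay at -0.04, -0.08 and -0.03 against 0.01, -0.01 and 0.01, lower on every Prox1-OE array by a small margin. Of the 9, 8 had a negative difference (53.8% of all genes) and 4 were lower without overlap (7.02%). At an unadjusted limma p under 0.05, 0 of the 9 acinar markers were lower (3.70%). Of these markers 6 read above 14 on every array, near the top of the scale, where a difference may not show.

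Nerves also contain the neuroendocrine forms. Of 10 neuron and nerve markers 9 had a negative difference, with a median of -0.07 and 0 at an unadjusted limma p under 0.05, and 6 lay below the median level. Their mean log2 level was 4.22 to 4.33 in Prox1-OE and 4.25 to 4.39 in control. Macrophages contain Snap23, Vamp3, Vamp8 and Stx4a. Of 10 macrophage markers 9 had a positive difference, and their mean log2 level was 7.23 to 7.90 in Prox1-OE and 6.65 to 7.01 in control. The median differences of the other marker lists were -0.20 for 4 alpha cell genes, 0.22 for 5 delta and PP cell genes, -0.08 for 4 ductal genes, -0.01 for 4 Schwann cell genes, 0.64 for 7 B cell genes and -0.02 for 8 mast cell and granulocyte genes. Lists count measured genes only, 4 of 7 for alpha cells, of which 3 lay below the median level. Of the delta and PP cell genes Rbp4 rose by 1.43 (limma adjusted p = 0.0247) and Ppy by 1.29 (limma adjusted p = 0.69), and the others by 0.02 to 0.22. The part of endocrine cells, nerves or macrophages in the values of the exocytosis genes was not tested.

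**Figure D4:**
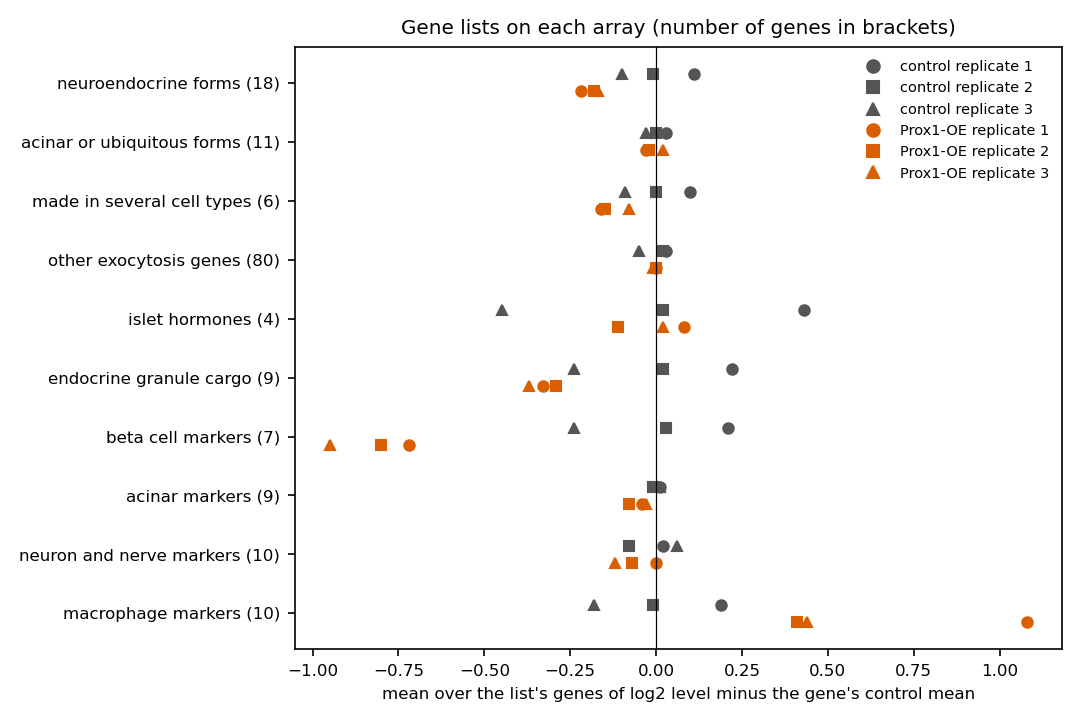
Mean over the genes of each list of the log2 level minus the gene's control mean (x axis), for each list (y axis, number of genes in brackets) and array; grey is control, orange Prox1-OE, and circles, squares and triangles are replicates 1, 2 and 3. The neuroendocrine forms and granule cargo lie lower on all Prox1-OE arrays than on any control by a small margin, which for the cargo is lost without Chga, the beta cell markers by a larger one, and the hormones and the acinar or ubiquitous forms overlap. The acinar markers also lie lower on all Prox1-OE arrays, by a small margin.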

How the data were processed

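The authors deposited one log2 value for each probe set and array. The submitters' processing notes name RMA and Partek 6.5 with no settings. Array medians ran from 4.38 to 4.42. RMA makes the arrays share a distribution and compresses dim probe sets, so a change in total RNA cannot be seen. Labelling started from 100 ng of RNA per sample, per the labels' protocols. Of 45101 probe sets 34958 had 1 gene symbol, 932 several and 9211 none, and 34754 matched a gene identifier in RefSeq (GRCm38.p6), with 0 renamed. The array's own assembly is not given in the sources used here. A linear model over the 6 arrays was fitted in limma 3.58.1 (lmFit, eBayes; R 4.3.3), without covariates or a filter, two-sided, with Benjamini-Hochberg adjustment over 18194 genes; the fit was tested on simulated data. Differences are Prox1-OE minus control. The members, lists and RE1 letters were chosen with earlier results of these data known, and the granule cargo list without Chga was added after seeing its values. Values on every array are given for Snap25, Stx1a, Vamp2, Snap23, Vamp8, Rab3d, and members with an unadjusted p under 0.05 or without overlap. Ptprn and Myrip were added after their values were seen. Marker lists are given as means or as median differences, and Cpa1, Ins2, Gcg, Sst, Chga, Rbp4 and Ppy also singly. Proteins were not analysed here. The number of arrays limits the precision. Alternatives were other choices of probe set, a dim gene filter, other normalizations and variance models, a replicate block, a hormone covariate and leaving out arrays; leaving out Prox1-OE replicate 1 and control replicate 3 together was chosen after seeing the data.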

Additional observations from a re-analysis of the deposited data

How the results depend on the processing

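In all alternatives run, 0 members passed an adjusted p of 0.05 over all genes, also at a threshold of 0.1. The median of the neuroendocrine forms stayed negative (-0.20 to -0.06 without any 1 array, -0.08 with preference for probe sets without _s, _a or _x). Of the 18, 13 to 17 were negative, fewest with preference for probe sets without suffix and with median centring, and 10 of the 12 that the filter on dim genes leaves. The median of the acinar or ubiquitous forms was -0.07 under that preference, 0.01 with the mean of all probe sets, -0.08 with the 6 genes made in several cell types, and -0.10 to 0.00 without any 1 array. The count of members lower at an unadjusted limma p under 0.05 was 3 with the filter on dim genes, which leaves 29 members (3.28% of all genes in that fit). It was 2 to 7 without any 1 array, where 2.85% to 3.9% of all genes were lower. Over all genes, 0 to 4 passed without any 1 array, 1 without both arrays that stand apart, and 2 with the replicate block. Arrays of the same number deviated together with correlations of 0.04, 0.14 and 0.11, so the numbers were not taken to pair the samples, although each of the 6 arrays correlated best with its own number. With the block, 6 members were lower at an unadjusted limma p under 0.05, where 3.91% of all genes were, and 0 passed.

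Small differences changed sign. With the mean of all probe sets, Vamp2 was -0.09, Syt7 -0.05, Snap23 0.11 and Napa 0.01. With preference for probe sets without suffix, Sytl4 was 0.03, Cplx1 0.05 and Vamp3 -0.07. Syt7 was -0.01 with array weights, Snap23 0.01 with median centring and Exph5 -0.01 with quantile normalization again. Without both arrays that stand apart, Vamp2 was -0.02, Syt5 0.01, Syt7 -0.03, Rab3c 0.10 and Stx2 -0.05. Without any 1 array, the ranges that crossed 0 were -0.05 to 0.06 for Ptprn, -0.04 to 0.19 for Vamp2, -0.15 to 0.18 for Syt7, -0.21 to 0.05 for Sytl4, -0.04 to 0.03 for Rab3b, -0.24 to 0.07 for Rab3c, -0.01 to 0.05 for Unc13a, -0.11 to 0.10 for Snap23, -0.05 to 0.10 for Stx2, -0.07 to 0.06 for Vamp8 and -0.07 to 0.13 for Exph5. The cause was not tested.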
